A study of Mus musculus with 20 samples.

Results

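Mt1 and Mt2, the genes of the metallothioneins MT-1 and MT-2, are 2 of the 13798 genes in the expression matrix of spleen follicular T cells from 10 bone marrow chimeras. They were selected on their measured levels in these same cells, across 6 clusters and 2 conditions and together in single cells, so their levels and their co-detection are given as a description with no test. Tests are kept for other genes, for the quality values of the cells and for the T cell receptor. All chimeras were irradiated C57BL/6 recipients, 8 to 10 weeks old at irradiation, and were analysed in week 10 after reconstitution. The 5 WT chimeras received congenic wild type marrow and were immunized with NP-OVA in alum in week 6. For the non-autoimmune chimeras the paper's methods also describe a later intraperitoneal booster of NP-OVA. The 5 mixed 564Igi chimeras received wild type marrow mixed with 564Igi marrow, in which B cells carry the rearranged heavy and light chains of a clone that binds self ribonuclear antigens, and were not immunized, so that the autoreactive clone and the lack of a foreign antigen cannot be told apart between the conditions. CD4+CXCR5+PD1+ cells were sorted from each spleen and captured for 10x 5′ RNA and T cell receptor libraries, 1 of each per mouse, so that a mouse is the replicate throughout.

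Metallothioneins are small proteins rich in cysteine that bind zinc, copper and cadmium and buffer free zinc. The transcription factor MTF1 senses zinc and binds metal response elements in the promoters of Mt1 and Mt2, and glucocorticoids, oxidative stress and cytokines that signal through STAT3 also induce both genes. In T cells they are known as genes of activation and of a dysfunctional state. Follicular helper T (TFH) cells help B cells in germinal centers, and follicular regulatory T (TFR) cells, which carry Foxp3, restrain them.

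Both genes lie on mouse chromosome 8 of GRCm38, on the plus strand. GENCODE vM21 places Mt2 (ENSMUSG00000031762) at chr8:94172664-94173568 and Mt1 (ENSMUSG00000031765) at chr8:94179082-94180327. Each has 3 exons, and 5513 bases lie between them. Their RefSeq promoter windows on GRCm38.p6 are shown because the core of the metal response element occurs in both. The windows hold the 250 bases before the RefSeq start and the first 30 bases from it, chr8:94178839-94179118 for Mt1 and chr8:94172368-94172647 for Mt2, written 5′ to 3′ on the plus strand, with capitals for the cores TGCACNC and TGCGCNC on either strand.
Mt1: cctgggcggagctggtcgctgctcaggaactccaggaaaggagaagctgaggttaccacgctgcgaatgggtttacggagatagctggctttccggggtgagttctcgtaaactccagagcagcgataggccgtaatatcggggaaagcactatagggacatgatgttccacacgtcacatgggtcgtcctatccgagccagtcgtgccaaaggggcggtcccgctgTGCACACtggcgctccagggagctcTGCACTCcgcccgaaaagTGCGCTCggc
Mt2: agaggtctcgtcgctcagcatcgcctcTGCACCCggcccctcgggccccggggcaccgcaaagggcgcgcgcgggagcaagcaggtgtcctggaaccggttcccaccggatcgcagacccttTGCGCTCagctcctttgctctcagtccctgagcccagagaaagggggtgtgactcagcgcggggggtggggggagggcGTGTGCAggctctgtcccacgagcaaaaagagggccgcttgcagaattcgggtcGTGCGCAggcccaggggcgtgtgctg
The Mt1 window held 3 matches, all on the plus strand, and the Mt2 window held 4, of which the first 2 were on the plus strand and the last 2 on the minus strand. Of 32851 RefSeq promoter windows of the same length, 24.1% held at least 1 match, 1.73% held at least 3 and 0.405% held at least 4. The window of Mt3, the neighbouring family member expressed mainly in brain, held 0. A match is a run of letters and not a measured binding site.

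The matrix covered 28192 cells, 1121 to 4030 per mouse, with 3424280 to 15241983 raw UMIs (unique molecular identifiers, each standing for 1 captured RNA molecule) per library. The authors' corrected UMI counts, scaled in each condition on its own to its typical depth, were used, and a gene was called detected in a cell at 1 or more corrected UMIs. Of the markers of follicular T cells, the share of cells with Cd3e was 99.4% in WT and 99.5% in 564Igi, with Pdcd1 in 73.5% and 77.7%, Cxcr5 in 41.1% and 40.4%, and Bcl6 in 11.1% and 10.6%. Cell barcodes shared by more than 1 library numbered 491, in 988 cells, of which 33 had Mt1, and in 0 of these cells was the receptor sequence shared as well.

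Mt1 was found in few cells, and every 564Igi mouse had a larger share of them than every WT mouse. In the WT chimeras the share of cells with Mt1 was 0.985% in mouse 11, 2.19% in mouse 12, 1.59% in mouse 14, 0.94% in mouse 23 and 0.794% in mouse 36. In the 564Igi chimeras it was 6.32% in mouse 13, 3.39% in mouse 17, 4.74% in mouse 21, 3.48% in mouse 24 and 5.61% in mouse 34. The lowest 564Igi mouse, mouse 17, lay above the highest WT mouse, mouse 12, but their 95% exact intervals, which cover counting error only, met at 2.78% to 4.1% and 1.67% to 2.82%. The means were 1.30% ± 0.584 (SD, n = 5) in WT and 4.71% ± 1.29 (SD, n = 5) in 564Igi, a ratio of 3.62. In corrected UMIs per 1000 cells, Mt1 reached 17.6 ± 6.6 (SD, n = 5) in WT and 93.1 ± 27.9 (SD, n = 5) in 564Igi. As background for the first of these comparisons, 0.261% of the 9959 genes that passed the filter on low genes, Mt1 among them, had every 564Igi mouse above every WT mouse in mean log2 level, and nothing further is read from this share because Mt1 was chosen with this contrast known.

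Mt2 was rarer and was ordered in the same way. The share of cells with Mt2 was 0.211% in WT mouse 11, 0.223% in mouse 12, 0.265% in mouse 14, 0.0854% in mouse 23 and 0.0496% in mouse 36. It was 1.03% in 564Igi mouse 13, 0.329% in mouse 17, 0.769% in mouse 21, 0.446% in mouse 24 and 0.513% in mouse 34. The conditions did not overlap, with means of 0.167% ± 0.0936 (SD, n = 5) in WT and 0.617% ± 0.28 (SD, n = 5) in 564Igi. These are 22 cells in all WT libraries, 2 to 6 per mouse, and 85 in all 564Igi libraries. The background share given for Mt1 covers only genes that passed the filter on low genes, which Mt2 did not. No share of genes without overlap was therefore at hand for Mt2, and nothing further is read from this order. Cd79a, a B cell gene that sorted T cells should lack, was found in 0.224% ± 0.0977 (SD, n = 5) of WT cells and 0.282% ± 0.122 (SD, n = 5) of 564Igi cells. The share of Mt2 in WT was no higher than that of this background gene, so the level of Mt2 in WT and its fold difference from 564Igi are not read as expression. Other listed genes of other cells varied widely around Cd79a. In WT and 564Igi, Ms4a1 was found in 0.0431% and 0.0677% of cells, Cd22 in 4.05% and 4.69% and Cd8b1 in 4.84% and 4.34%. Cd79a is therefore no general floor, and Mt1 is not shown to stand above every such gene. Mt1 was found in at least 1% of cells in 7 mice and passed the filter on low genes, whereas Mt2 reached that share in 1 mouse and did not pass.

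Mt3, which the choice did not involve, showed no such order. Its share was 3.2% ± 1.04 (SD, n = 5) in WT and 3.07% ± 0.667 (SD, n = 5) in 564Igi, and in the fit across genes its mean log2 level differed by 0.00 (SE 0.00485; limma adjusted p = 1.0).

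**Figure D1:**
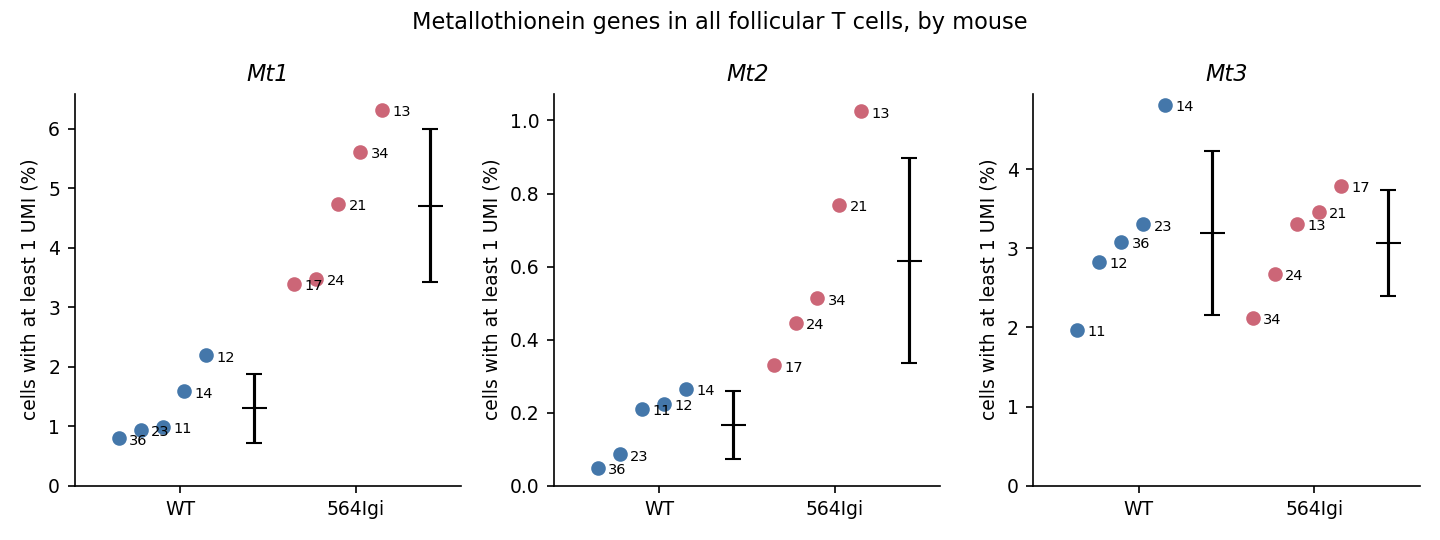
Share of cells with at least 1 corrected UMI of Mt1, Mt2 and Mt3 (vertical axes, percent, each on its own scale) in the WT (blue) and 564Igi (red) chimeras. Each point is a mouse with its number, and the bar beside each group is its mean ± SD over 5 mice; the 564Igi mice lie above the WT mice for Mt1 and Mt2, and the groups overlap for Mt3.

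Cells that had Mt1 also held more of it in the 564Igi chimeras. Of 645 Mt1-detected cells in the 564Igi chimeras, 61.4% held 1 corrected UMI and 58 cells held 5 or more, up to 15. Of 182 in the WT chimeras, 79.1% held 1 and 3 cells held 5 or more, up to 6. The mean was 2.0 UMIs per detected cell in 564Igi and 1.35 in WT over pooled cells. Cells of a mouse share a library, and no test was made of this difference. For Mt2, 66 of 85 detected 564Igi cells and 21 of 22 detected WT cells held 1 UMI.

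In every mouse the TFR cells had the largest share of Mt1 among the 3 large clusters. In TFR cells Mt1 was found in 1.84%, 3.23%, 3.61%, 1.59% and 1.71% of cells of WT mice 11, 12, 14, 23 and 36. In 564Igi mice 13, 17, 21, 24 and 34 the TFR share was 10.2%, 6.6%, 7.56%, 6.63% and 10.2%. The conditions did not overlap in TFR cells, with means of 2.4% ± 0.949 (SD, n = 5) in WT and 8.23% ± 1.82 (SD, n = 5) in 564Igi. The share of all genes without overlap was not computed within clusters, so nothing further is read from this order in any cluster. Of all cells 42.8% were TFR cells in WT and 39.6% in 564Igi, but of the cells with Mt1 80.8% and 69.5% were.

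Activated TFH cells, marked by Tnfsf8, followed with a lower share of Mt1 and the same order of conditions. The share was 0.443%, 0.911%, 0.231%, 0.629% and 0.237% in WT mice 11, 12, 14, 23 and 36, and 2.8%, 1.59%, 3.48%, 1.44% and 3.2% in 564Igi mice 13, 17, 21, 24 and 34. The conditions did not overlap there either, at 0.49% ± 0.287 (SD, n = 5) and 2.5% ± 0.932 (SD, n = 5). In Sostdc1 TFH cells they did overlap, since Mt1 was found in 0 of the Sostdc1 cells of 564Igi mouse 17 and of WT mice 11 and 36. The Sostdc1 means were 0.368% ± 0.342 (SD, n = 5) in WT and 1.7% ± 0.966 (SD, n = 5) in 564Igi.

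The small clusters held few cells with Mt1. In effector TFH cells, marked by Ccl5 and Gzmk, Mt1 was found in 0 of 274 WT cells, which allows a share of up to 1.09%, and in 14 of 408 564Igi cells, 3.45% ± 0.6 (SD, n = 5). Interferon stimulated TFH cells held 1 cell with Mt1 of 188 in WT and 6 of 191 in 564Igi, and central memory TFH cells 1 of 560 and 1 of 165. The share in WT central memory TFH cells, 0.108% as a mean over mice, was below that of the B cell gene Cd79a and is not read as expression. By their 564Igi means the clusters ran from TFR through interferon stimulated (4.34% ± 4.29, SD, 4 mice with at least 20 such cells), effector, activated and Sostdc1 to central memory TFH cells. TFR cells stood above activated TFH cells in each of the 5 mice, whereas the ranges over mice of each pair of neighbours in that order overlapped.

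In the 564Igi chimeras Mt2 was also most frequent in TFR cells, which led the 3 large clusters in 5 of 5 mice. TFR cells held 18 of the 22 WT cells with Mt2 and 55 of the 85 in 564Igi, and the TFR share was 0.301% ± 0.155 (SD, n = 5) in WT and 0.979% ± 0.399 (SD, n = 5) in 564Igi, without overlap. Activated TFH cells held 3 WT and 25 564Igi cells with Mt2, at 0.0527% ± 0.052 (SD, n = 5) and 0.426% ± 0.288 (SD, n = 5). The WT value is below the 0.224% of Cd79a and rests on 3 cells, so no comparison is read from it. Mt2 was found in 0 of 560 WT central memory TFH cells, which allows up to 0.536%, and in 0 of 165 of 564Igi, which allows up to 1.82%. In contrast to Mt1 and Mt2, Mt3 was found in the largest share in effector TFH cells, 8.82% ± 4.86 (SD, n = 5) in WT and 11.3% ± 5.56 (SD, n = 5) in 564Igi.

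**Figure D2:**
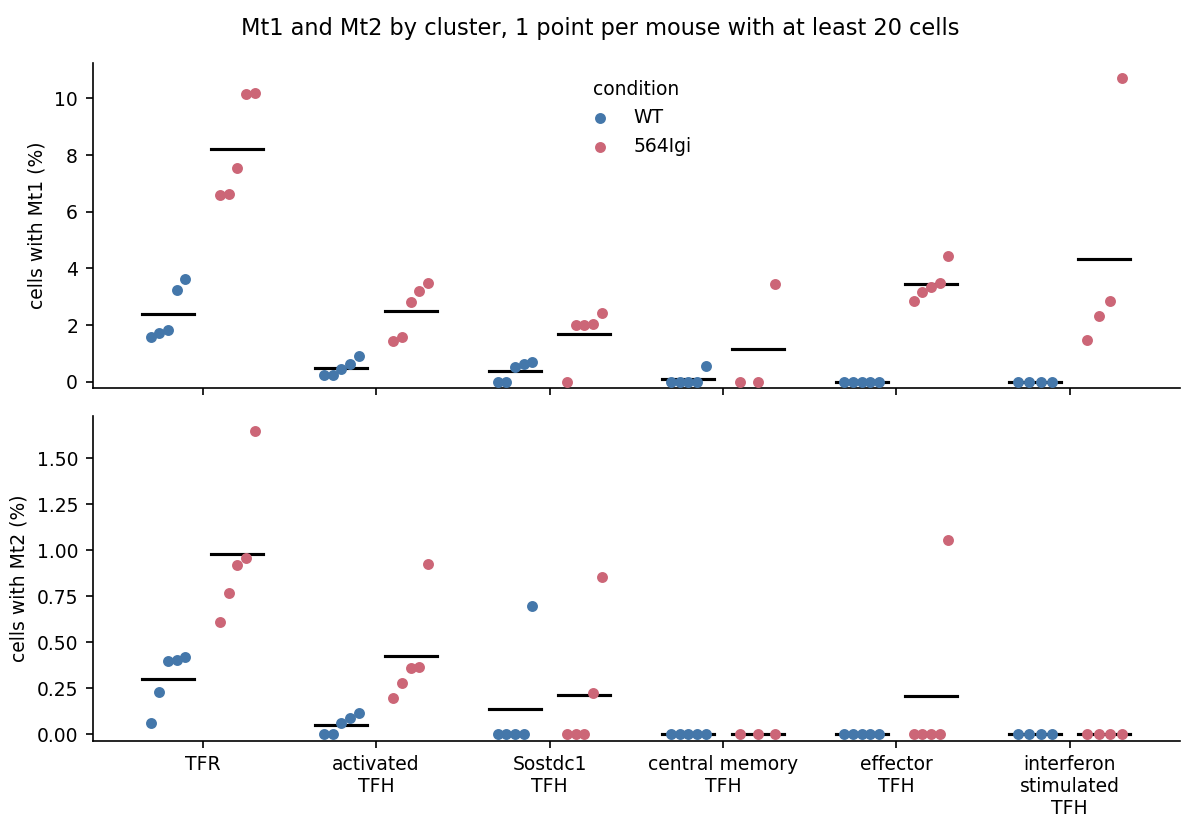
Share of cells with Mt1 (top) and Mt2 (bottom) in percent, by cluster, in WT (blue) and 564Igi (red) chimeras, 1 point per mouse with at least 20 cells in the cluster and a black line at the mean over these mice. TFR cells of the 564Igi mice reach 6.6% to 10.2% for Mt1, above the other large clusters, and the interferon stimulated and central memory clusters rest on 3 to 5 mice per condition.

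A gene is found more often in a cell with more UMIs, so the shares were compared within quartiles of raw UMIs set over all cells. In TFR cells with 2001 to 2801 raw UMIs, the share with Mt1 was 1.96% ± 1.52 (SD, n = 5) in WT and 5.61% ± 3.22 (SD, n = 5) in 564Igi, and the mice of the conditions overlapped. In TFR cells with 4711 to 16223 raw UMIs the shares were 3.8% ± 2.26 (SD, n = 5) and 12.2% ± 3.55 (SD, n = 5), and the conditions were apart. In activated TFH cells the lowest quartile gave 0.32% ± 0.233 (SD, n = 5) and 1.38% ± 0.472 (SD, n = 5), and the highest 0.855% ± 0.707 (SD, n = 5) and 4.66% ± 2.44 (SD, n = 5), where the mice overlapped, at 0.299% to 2.06% in WT and 1.61% to 7.64% in 564Igi. The mean share was larger in 564Igi in each of the 4 quartiles of both clusters.

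**Figure D3:**
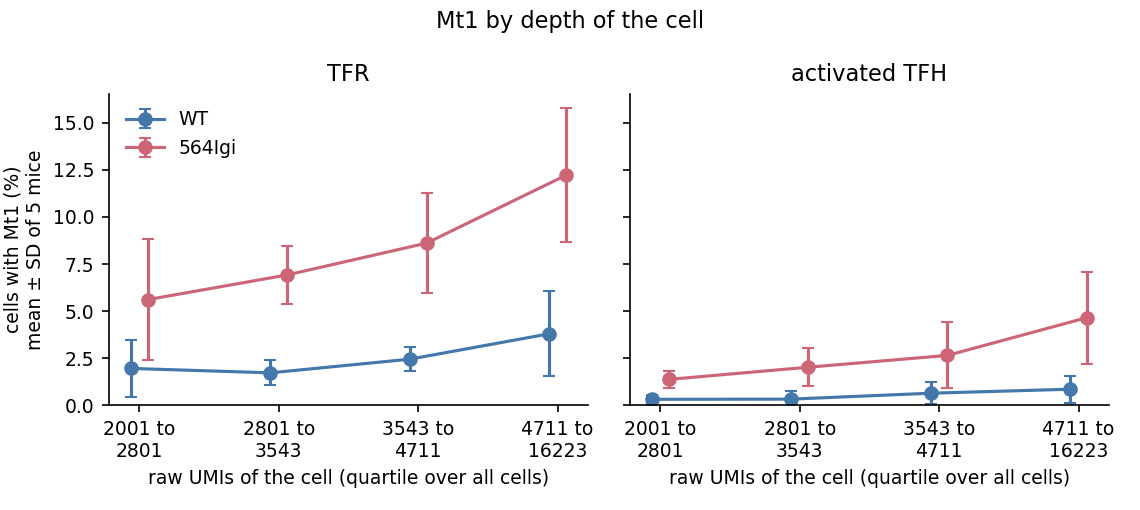
Share of cells with Mt1 (vertical axis, percent, mean ± SD over 5 mice) in TFR cells (left) and activated TFH cells (right), by quartile of raw UMIs of the cell (horizontal axis, UMI range of each quartile), in WT (blue) and 564Igi (red) chimeras. The red points lie above the blue ones in every quartile, and in TFR cells the 564Igi mean goes from 5.61% in the lowest to 12.2% in the highest quartile.

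Depth, RNA quality and stress scores of the cells were not shown to differ between the conditions. Raw UMIs per cell were 3980 ± 412 (SD, n = 5) in WT and 3975 ± 656 (SD, n = 5) in 564Igi, and the heat shock score that the authors assigned was 0.0141 ± 0.0477 (SD, n = 5) and 0.0121 ± 0.0621 (SD, n = 5). The smallest of 7 two-sided exact permutation p-values over the mice was 0.119, for the percent of mitochondrial UMIs, 3.59 ± 0.133 (SD, n = 5) in WT and 3.36 ± 0.285 (SD, n = 5) in 564Igi, and its adjusted value was 0.833. Within the labelled sexes of the recipients, Mt1 was found in 0.985% to 2.19% of cells in 2 female WT mice and 4.74% to 6.32% in 3 female 564Igi mice. The ranges were 0.794% to 1.59% in 3 male WT mice and 3.39% to 3.48% in 2 male 564Igi mice. Female and male mice thus showed the same order of conditions, and with 2 or 3 mice a side no more was read from it.

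Mt1 and Mt2 were found together in the same cells. Of 107 cells with Mt2, 76 also had Mt1, where 3.14 would carry both if the genes were spread independently over all cells. Mt2 was found in 9.19% of the 827 cells with Mt1 and in 0.113% of the cells without it. The share of Mt2 among Mt1-detected cells was 10.7%, 3.39%, 6.67%, 6.06% and 3.13% in WT mice 11, 12, 14, 23 and 36, on 1 to 3 cells each. It was 13.6%, 7.77%, 12.8%, 7.69% and 6.1% in 564Igi mice 13, 17, 21, 24 and 34, on 3 to 26 cells each. In each of the 10 mice it was above the share in cells without Mt1, which was 0.025% to 0.185%.

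The share of cells with Mt2 went with the number of Mt1 UMIs. It was 3.7% of the 540 cells with 1 Mt1 UMI, 7.3% of 137 cells with 2, 21.3% of 89 cells with 3 to 4, and 44.3% of 61 cells with 5 to 15 (95% exact interval 31.5% to 57.6%). The median raw UMI count of the cells was 4007 with 1 Mt1 UMI and 4018 with 5 to 15, and 73.3% and 95.1% of these cells came from 564Igi mice; the part of depth or condition in the relation was not tested. Over single cells centred on the mean of their mouse and cluster, the Pearson correlation of Mt1 with Mt2 was 0.362 (n = 28192 cells, which share libraries, depth and many zeros). Mt3 was found in 5.93% of Mt1-detected cells and 3.03% of the others.

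**Figure D4:**
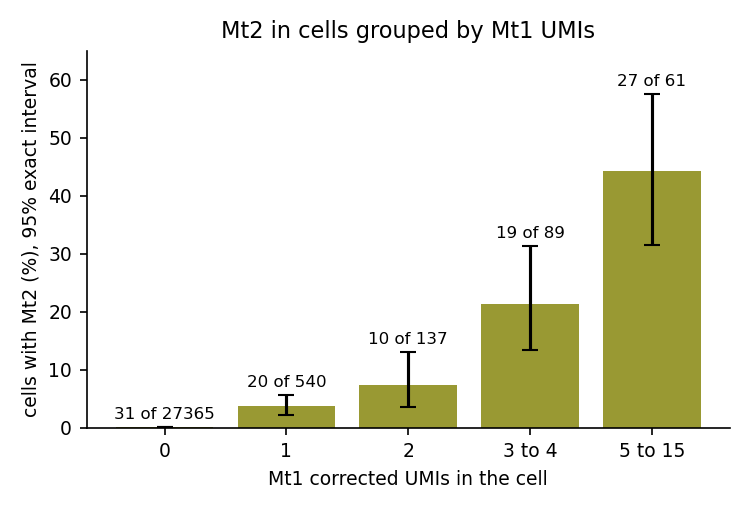
Share of cells with at least 1 Mt2 UMI (vertical axis, percent) in cells grouped by their corrected Mt1 UMIs (horizontal axis), over all mice, with 95% exact binomial intervals that cover counting error only. The numbers above the bars are cells with Mt2 of all cells in the group, from 31 of 27365 without Mt1 to 27 of 61 with 5 to 15 Mt1 UMIs.

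Within the TFR cluster, Mt1 was found more often where Foxp3, its defining transcription factor, was also captured. In 564Igi mice it was found in 10.9% ± 2.28 (SD, n = 5) of TFR cells with Foxp3 and 4.95% ± 1.35 (SD, n = 5) of those without, and in WT mice in 3.01% ± 1.23 (SD, n = 5) and 1.63% ± 0.765 (SD, n = 5). Among activated TFH cells of 564Igi mice the shares were 5.02% ± 3.91 (SD, n = 5) of 321 cells with Foxp3 and 2.38% ± 0.813 (SD, n = 5) of 5484 cells without. No Foxp3 was captured in 135 of the 151 Mt1-detected cells of that cluster, nor in 5484 of all its 5805 cells. Cells with and without Foxp3 were not matched for depth here, and the part of depth was not tested.

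The genes most like Mt1 were looked for in both ways, again as a description. Over 56 means of a mouse and cluster, which share libraries and conditions, the highest Pearson correlations were with Ecel1 (0.77), Cd74 (0.69), Batf (0.69), Nfkbia (0.68) and Tmem176b (0.67). Over the 28192 single cells, centred as above, they were with Ccr8 (0.108), Tnfrsf4 (0.0955), Tnfrsf9 (0.0933), Capg (0.0898), Il1r2 (0.0804), Sdf4 (0.0771), Srgn (0.0744), Il2ra (0.0736), Foxp3 (0.073) and Gm42031 (0.0723). The values over cells are small, as sparse counts allow, and they are given only to name the genes. Ccr8, a chemokine receptor, Tnfrsf4 (OX40) and Tnfrsf9 (CD137), receptors of the TNF family, Il2ra, the IL-2 receptor alpha chain, and Foxp3 are all known genes of effector regulatory T cells.

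The Mt1-detected cells were then compared with undetected cells of the same mouse across 9958 genes, with the undetected cells weighted to the same clusters and UMI quartiles of the mouse. Genes correlated with Mt1 over single cells belong to what these genes were selected on, and this comparison uses the same cells, so its calls are a description and no p is given for the 10 correlated genes named above. With 10 mice, 135 genes (1.36% of those tested) were higher and 68 (0.683%) were lower in Mt1-detected cells at a limma adjusted p below 0.05. The 10 genes with the largest change were all higher, in each of the 10 mice, and 6 of them, Tnfrsf4, Ccr8, Tnfrsf9, Capg, Sdf4 and Srgn, are among those correlated genes. Levels here are means of log2(corrected count + 1), and differences are on that scale.

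Of these 10 genes 5 encode receptors or other surface proteins. Tnfrsf4, with the largest change, was at 2.23 in Mt1-detected and 1.64 in undetected cells, a difference of 0.60 (SE 0.0469), and was found in 88.9% and 77.4% of them. Tnfrsf9 differed by 0.43 (SE 0.0417), Cd81, a tetraspanin, by 0.36 (SE 0.0379) and Ccr8 by 0.34 (SE 0.0361), with Ccr8 found in 43.1% of Mt1-detected and 23.8% of undetected cells. Cd74, the invariant chain of MHC class II, differed by 0.37 (SE 0.0407). These 5 genes were higher in every mouse, at smallest by 0.05 for Ccr8.

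The other 5 encode membrane-bound enzyme subunits, intracellular or secreted products. Cyba, the p22phox subunit of NADPH oxidase, differed by 0.47 (SE 0.0563), Srgn, the granule proteoglycan serglycin, by 0.46 (SE 0.0399) and Capg, which caps actin filaments, by 0.46 (SE 0.0407). S100a6, a calcium-binding protein that the paper used as a marker of activated TFH cells, differed by 0.35 (SE 0.0413). Sdf4, a calcium-binding protein of the Golgi, differed by 0.37 (SE 0.0426), but on GRCm38 its end lies 232 bases before the start of Tnfrsf4 on the same strand of chromosome 4, so that reads of these neighbours may not be told apart.

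The markers of TFR cells moved in the same direction within the weighted clusters. Foxp3 was at 0.94 in Mt1-detected and 0.67 in undetected cells (difference 0.27, SE 0.0289), and Il2ra differed by 0.11 (SE 0.0213); both are among the correlated genes. Ikzf2, the third marker, differed by 0.11 (SE 0.039) with a limma adjusted p of 0.184. Other genes were named after their values were seen, so their calls are a description. Tnfrsf18 (GITR) was higher by 0.33 (SE 0.0358) and Ctla4, a checkpoint receptor, by 0.30 (SE 0.0359). Tigit, another checkpoint receptor, was higher by 0.25 (SE 0.0462) and Il10, a regulatory cytokine, by 0.06 (SE 0.0143).

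The lower genes had smaller changes, and those named here were chosen after their values were seen, so their calls are a description. Tcf7 encodes TCF-1, a factor of memory and stem-like T cells. It was at 0.48 in Mt1-detected and 0.81 in undetected cells (difference -0.33, SE 0.037) and lower in each of the 10 mice. Slamf6, a receptor of the SLAM family, differed by -0.23 (SE 0.0315) and Id3, an inhibitor of E proteins, by -0.21 (SE 0.0302), also in each of the 10 mice. Of 13 mitochondrially encoded genes tested, 7 were lower and 0 higher, where 0.683% of all genes tested were lower and 1.36% higher. Ribosomal protein genes were counted as the 93 genes whose names start with Rps or Rpl and a digit. Of these 7 were lower and 1, Rps27l, was higher. Rpsa, which falls outside this count, was also called lower, with a difference of -0.09 (SE 0.0241).

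In TFR cells alone, with 10 mice, 92 genes (0.924%) were higher and 44 (0.442%) lower. Of these 136 genes 127 were also called over all clusters, with the same sign, which is 93.4% of the TFR calls and 62.6% of the calls over all clusters. TFR cells were 595 of the 827 Mt1-detected cells, so the fits share most of their cells and the overlap is no independent agreement. In activated TFH cells alone 5 mice had at least 10 Mt1-detected cells, and 0 genes passed in limma while 684 had an unadjusted p below 0.05. The difference there was 0.81 (SE 0.103; limma adjusted p = 0.0514) for S100a6, 0.47 (SE 0.0648) for Capg and -0.46 (SE 0.0643; limma adjusted p = 0.0514) for Tcf7. Whether the clusters differ from each other in these changes was not tested.

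**Figure D5:**
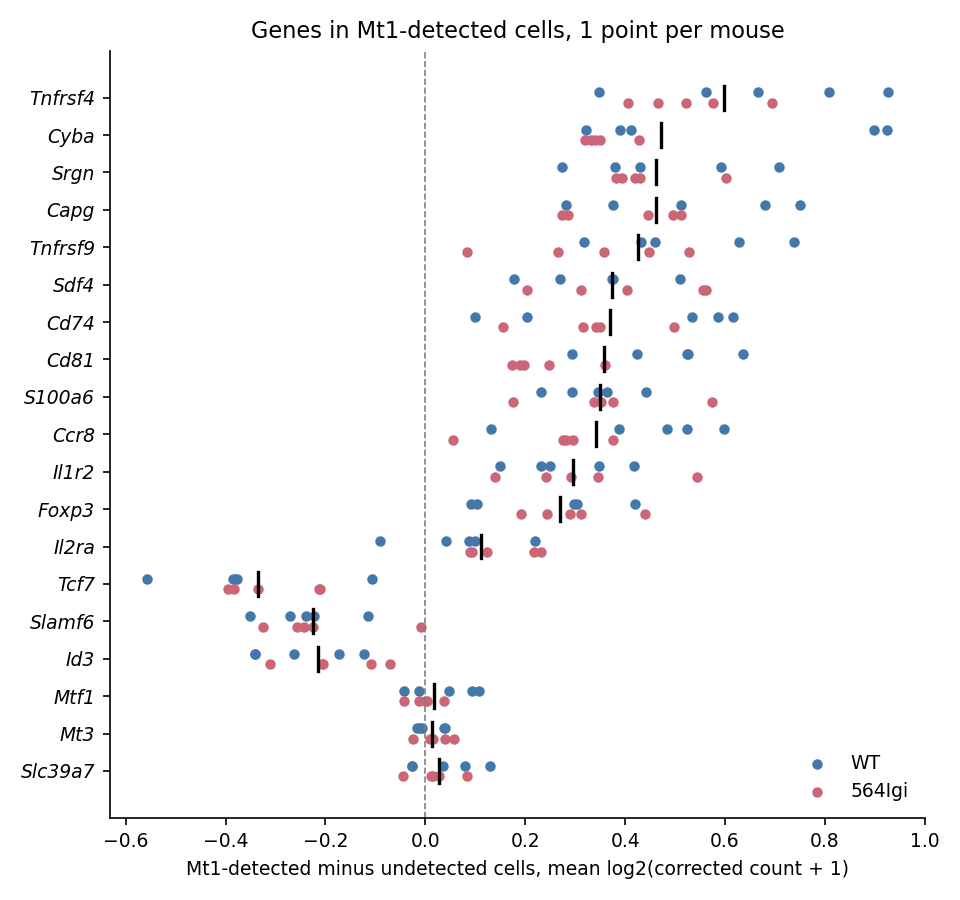
Difference in mean log2(corrected count + 1) between Mt1-detected and undetected cells of the same mouse (horizontal axis), for the 10 genes with the largest change and for Il1r2, Foxp3, Il2ra, Tcf7, Slamf6, Id3, Mtf1, Mt3 and Slc39a7. Each point is a WT (blue) or 564Igi (red) mouse, black bars are means over 10 mice and the dashed line marks 0; the points of Tnfrsf4 to Foxp3 lie right of 0 in every mouse, those of Tcf7, Slamf6 and Id3 left of it, and those of the last 3 genes on both sides.

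Genes that handle metals or answer to them did not pass the test in Mt1-detected cells. Of 31 listed genes of metal transport, storage and sensing 27 were tested, 0 were called in either direction, 0 had an unadjusted limma p below 0.05, and the median difference was 0.00, against 0.00 over all genes tested. The largest changes were those of the zinc transporters Slc39a7, 0.03 (SE 0.0179; limma adjusted p = 0.571), and Slc30a6, 0.02 (SE 0.0117; limma adjusted p = 0.508). Mtf1, the zinc sensor, differed by 0.02 (SE 0.0151; limma adjusted p = 0.711), and Mt3 by 0.01 (SE 0.00813; limma adjusted p = 0.528). Of 16 tested genes of the oxidative stress list 0 were called and 2 had an unadjusted limma p below 0.05, with a median of 0.01. Prdx1, a peroxiredoxin, differed by 0.09 (SE 0.0341; limma adjusted p = 0.215) and Txn1, thioredoxin, by 0.06 (SE 0.0302; limma adjusted p = 0.397).

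In 4 further lists single genes were called, where 1.36% of all genes tested were higher and 0.683% lower. Unadjusted limma p-values below 0.05 were found for 1 glucocorticoid, 6 hypoxia and glycolysis, 6 STAT3 and 6 dissociation genes, and for 1247 of all 9958. Of 14 tested genes induced by glucocorticoids 1 was higher, Il1r2, the decoy receptor of IL-1, by 0.30 (SE 0.0293), and the list's median was 0.01. Il1r2 is also among the genes correlated with Mt1 over cells, so its call is no independent value. Of 21 tested hypoxia and glycolysis genes 1 was higher, Tpi1, a glycolytic enzyme, by 0.13 (SE 0.0306; limma adjusted p = 0.0152), and the median was 0.01. Of 12 tested STAT3 genes the factors Batf, by 0.17 (SE 0.036), and Junb, by 0.17 (SE 0.0376), were higher and the receptor chain Il6ra was lower, with a difference of -0.11 (SE 0.0236), and the median was 0.01. Of 17 tested genes that respond to tissue dissociation 3 were higher, namely Nfkbia, the inhibitor of NF-kB, by 0.32 (SE 0.0413), Junb as above and Ier2, an immediate early gene, by 0.12 (SE 0.0317), and the median was 0.04. Tpi1 was no longer called without 564Igi mouse 17, 21 or 34 (limma adjusted p = 0.0513, 0.0558 and 0.0524), and Ier2 was still called only without WT mouse 12 or 564Igi mouse 21.

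Between the conditions none of these 6 lists had a called gene. Across 9959 genes the fit of 5 against 5 mice called 1 gene higher (0.01%) and 0 lower (0%) in 564Igi at a limma adjusted p below 0.01 and a log2 difference above 0.2, while 318 had an unadjusted p below 0.05. The gene was Gm42031, a lincRNA at chr8:85125872-85132289 on the minus strand, at 0.48 ± 0.126 (SD, n = 5) in WT and 2.33 ± 0.576 (SD, n = 5) in 564Igi, and it was not called without the limma trend (limma adjusted p = 0.141). Unadjusted limma p-values below 0.05 were found for 0 of 27 metal, 0 of 16 oxidative stress, 0 of 14 glucocorticoid, 7 of 21 hypoxia and glycolysis, 4 of 12 STAT3 and 0 of 17 dissociation genes. The medians of the lists were 0.00, 0.00, 0.01, 0.04, 0.06 and 0.01, against 0.00 over all genes. The study drew glycolysis genes from these same cells, so that list is not independent of them.

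The 2 members of each list with the largest change between the conditions show its scale. In the metal list they were Ftl1, ferritin light chain, 0.10 (SE 0.0873), and Cox17, a copper chaperone, 0.08 (SE 0.0449). In the oxidative stress list they were Prdx1, 0.10 (SE 0.0633), and Txn1, 0.08 (SE 0.0395), and in the glucocorticoid list Il1r2, 0.05 (SE 0.0558), and Cebpb, 0.04 (SE 0.0396). Aldoa, a glycolytic enzyme, differed by 0.33 (SE 0.112; limma adjusted p = 0.985) and Mif, a cytokine of the hypoxia list, by 0.26 (SE 0.0845; limma adjusted p = 0.872). Of the STAT3 list Maf differed by 0.13 (SE 0.0725) and Batf by 0.12 (SE 0.0517), and of the dissociation list Hspa8, a chaperone, by 0.15 (SE 0.182) and Jund by 0.12 (SE 0.0809). None of these passed.

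Cells with Mt1 were deeper than the others and had a lower percent of mitochondrial UMIs. They held 4556 ± 605 (SD, n = 10) raw UMIs against 3936 ± 504 (SD, n = 10) in undetected cells weighted to the same clusters, higher in 10 of 10 mice (two-sided exact sign-flip permutation p = 0.00195, the smallest that 10 mice can give; adjusted over 7 measures 0.00273). Any gene is found more often in a cell with more UMIs, so grouping cells by detection favours this outcome. The depth difference is therefore not read as a trait of cells with Mt1. The percent of mitochondrial UMIs was 3.04 ± 0.291 (SD, n = 10) against 3.42 ± 0.24 (SD, n = 10), lower in 10 of 10 mice (adjusted exact p = 0.00273). With the UMI quartile added to the weights the mitochondrial difference was -0.336 ± 0.116 (SD, n = 10; adjusted exact p = 0.00488).

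The differences in the scores that the authors assigned shrank when depth was weighted. The heat shock score was 0.0537 ± 0.0638 (SD, n = 10) in Mt1-detected and 0.0265 ± 0.0537 (SD, n = 10) in undetected cells, higher in 9 of 10 mice (adjusted exact p = 0.0205), but with the UMI quartile in the weights the difference was 0.0162 ± 0.0373 (SD, n = 10) and the adjusted exact p was 0.184. The S phase score differed by -0.0107 ± 0.00736 (SD, n = 10; adjusted exact p = 0.00273), and by -0.00446 ± 0.00689 (SD, n = 10; adjusted exact p = 0.0928) with the quartile. The G2/M score differed by -0.0404 ± 0.0122 (SD, n = 10; adjusted exact p = 0.00273), and by -0.0198 ± 0.0117 (SD, n = 10; adjusted exact p = 0.00488) with it. The authors removed cells with high cycle scores, so cycling cells are not covered.

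Markers of other cells were compared in the same way. In Mt1-detected cells Ms4a1, C1qa and S100a9 were at 0, against 0.0503%, 0.0258% and 0.0222% of undetected cells. These shares are too small for an absence to be read. Cd79a was found in 0.158% of cells against 0.29% of undetected cells, and Csf1r in 0.194% against 0.0925%. S100a8 was found in 0.333% against 0.0524%, and Cd68 in 6.34% against 4.25%. Csf1r and S100a8 were higher in 1 of 10 mice each, and Cd68 in 8. No difference is read for Csf1r and S100a8. The summed log2 level of 8 myeloid genes was higher in Mt1-detected cells in 9 of 10 mice, 0.72 to 1.14 against 0.56 to 0.89, and most of it was Cst3, found in 57.2% and 49.3% of cells. Lyz2, which defines myeloid cells, was found in 1.37% of Mt1-detected and 0.25% of undetected cells, in the mean over mice. The sums of the 4 B cell genes in the matrix were higher in 2 of 10 mice, of the 3 plasma cell genes in 5 of the 4 erythroid genes in 2, and of single NK, CD8 and stromal genes in 2, 6 and 3. Between the conditions the myeloid sum was 0.61 to 0.76 in WT and 0.53 to 0.81 in 564Igi, the B cell sum 0.07 to 0.09 and 0.05 to 0.11, and the erythroid sum 0.00 to 0.02 in both. The part of other cells in the differences of Mt1-detected cells was not tested.

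The T cell receptor libraries, which played no role in the choice of Mt1, gave a paired sequence for 15 to 172 Mt1-detected cells per mouse. A clonotype is the set of cells of a mouse with the same pair of CDR3 sequences. Of the Mt1-detected cells 69.4% ± 9.34 (SD, n = 10) belonged to a clonotype of at least 2 cells, against 66.8% ± 7.33 (SD, n = 10) of undetected cells weighted to the same clusters, higher in 6 of 10 mice (two-sided exact sign-flip permutation p = 0.186, adjusted 0.186). The difference was 2.59 points, 1.12 without WT mouse 14, and 8.33 points for clonotypes of at least 5 cells (adjusted exact p = 0.0293). Mt1-detected cells with clone mates numbered 418, in 293 clonotypes. Mt1 was also found in 7.42% ± 5.52 (SD, n = 10) of their mates, against 4.1% ± 2.41 (SD, n = 10) of the mates of undetected cells, higher in 8 of 10 mice (exact p = 0.0254, adjusted over both clone measures 0.0508).

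By mouse the share of mates with Mt1 was 8.33%, 3.61%, 9.33%, 0.929% and 1.43% for Mt1-detected cells of WT mice 11, 12, 14, 23 and 36, against 1.24%, 2.61%, 3.6%, 0.929% and 2.1% for undetected cells. It was 18.8%, 8.58%, 8.75%, 2.5% and 11.9% in 564Igi mice 13, 17, 21, 24 and 34, against 7.34%, 4.57%, 5.7%, 5.22% and 7.69%. Mouse 13 had the highest share and the largest difference, WT mouse 23 had equal shares at this precision, and WT mouse 36 and 564Igi mouse 24 had the opposite order. With mates of the same cluster alone the shares were 7.55% ± 6.39 (SD, n = 10) and 4.78% ± 2.82 (SD, n = 10; exact p = 0.125). At the adjusted threshold of 0.05 clone mates were therefore not shown to share Mt1 detection.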

How the data were processed

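The expression matrix was deposited by the authors as the natural log of sctransform-corrected counts plus 1, computed for WT and 564Igi cells separately, after reads had been aligned to GRCm38 with Cell Ranger 4.0.0 and analysed in Seurat 3.1.4. The authors state that mitochondrial and ribosomal content, UMI number and heat shock score were regressed out in that step. Values were turned back into corrected counts, all of which were whole within 1e-06; these are not raw counts, so count models were not used. The deposited cell table gave raw UMI and gene counts, percent of mitochondrial and ribosomal UMIs, the authors' heat shock, S and G2/M scores and cluster names. The deposited T cell receptor table gave paired CDR3 sequences. The authors' limits on cells were kept and no doublet caller was run.

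A gene was tested if 5 or more mice each had it in 1% or more of their cells. Tests were made with limma 3.58.1 in R 4.3.3, with a trend, on per-mouse means of log2(corrected count + 1), or on per-mouse differences between Mt1-detected and undetected cells with the undetected cells weighted to the cluster and UMI quartile of the detected ones. Adjusted p-values are Benjamini-Hochberg values over all genes. Cell and clone measures were tested over mice by exact sign-flip or permutation tests in scipy 1.17.1. Intervals are exact binomial intervals, and a count of 0 allows a share of up to 3 counts of the total. The limma steps were tested on simulated data. Named genes were Mt1 and Mt2, the 5 and 10 genes most correlated with Mt1, the 10 called genes with the largest change per comparison, called members of the gene lists and, where a list had none, its 2 members with the largest change; exceptions are marked where they stand. The members and lists were chosen with earlier results of these data known. Mice 34 and 36, whose library numbers stand apart, were left out in an alternative chosen after the data were seen, as were the weights by UMI quartile for the cell measures and the clone mates of the same cluster.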

Additional observations from a re-analysis of the deposited data

Results flagged for a closer look

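Gm42031, the lincRNA called between the conditions, differed between them in its relation to Mt1. Its mean log2 level was lower in Mt1-detected than in undetected cells in the WT mice, by -0.10 ± 0.0397 (SD, n = 5; -0.15 to -0.06), and higher in the 564Igi mice, by 0.50 ± 0.118 (SD, n = 5; 0.39 to 0.69). The difference of these differences was 0.60 (SE 0.0735). Of 9958 genes Gm42031 was the only 1 flagged at a limma adjusted p below 0.05, while 538 had an unadjusted p below 0.05. Gm42031 is among the genes correlated with Mt1 over the same cells, so this is a description and its p is not given. Its mean level over all cells was 0.48 in WT and 2.33 in 564Igi, and the part of the level in this difference was not tested. Gm42031 lies on the same chromosome as Mt1 and Mt2.

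Of 49 groups of mice examined for a value far from the rest, 5 held one. The rate of about 1 in 20 that chance gives does not hold for shares that rest on few cells, so no excess is read. Mt1 was found in 0% of the Sostdc1 TFH cells of 564Igi mouse 17, below the other 564Igi mice. Mt2 was found in 0.927% of the activated TFH cells of 564Igi mouse 21, which is 12 of 1294. In Sostdc1 TFH cells it was found in 0.699% in WT mouse 14, 1 of 143 cells, and in 0.855% in 564Igi mouse 13, 3 of 351. Each lay above the rest of its group, on these few cells. The share of expanded cells was 15.8 points higher in Mt1-detected than in undetected cells of WT mouse 14, where 15 of 19 Mt1-detected cells were expanded.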

How the results depend on the processing

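The shares of Mt1 and Mt2 are limited by depth, since 540 of the 827 cells with Mt1 held 1 UMI. With at least 2 corrected UMIs required, the difference between 564Igi and WT for Mt1 was 1.55 points in all cells (3.41 with 1 UMI), 2.87 in TFR, 0.743 in activated and 0.551 in Sostdc1 TFH cells, and for Mt2 0.129 points in all cells and 0.23 in TFR cells. Pooling cells, leaving out mice 34 and 36 or leaving out any 1 mouse moved these differences by less than the SD between the 564Igi mice. Some moved by more than the smaller SD between the WT mice. Mt1 in Sostdc1 TFH cells, at 1.33 points with 1 UMI and all mice, reached 1.75, where the WT SD was 0.342. Mt1 in all cells ranged from 3.01 to 3.74 points.

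Between the conditions, 2 genes were higher with equal weight per cluster, 0 without the limma trend (Gm42031 then had a limma adjusted p of 0.141), and 5 were higher and 1 lower on the log2 mean count plus 0.1 scale; leaving out 1 mouse gave 1 to 2, with 2 without WT mouse 23. Leaving out 1 mouse turned the sign of Il1r2 (-0.00796 to 0.0891, lowest without 564Igi mouse 13) and Hspa8 (-0.00253 to 0.323, lowest without 564Igi mouse 34). Between Mt1-detected and undetected cells, the genes higher and lower numbered 596 and 203 without weights, and 286 were higher with weights by cluster alone. Without the trend 88 were higher, and without the filter on low genes 75 were higher and 122 lower. With at least 2 Mt1 UMIs, where the 5 mice left were all 564Igi, 39 were higher and 24 lower. At an adjusted p below 0.01 and a difference above 0.2 they numbered 25 and 5. In TFR cells alone 44 were lower, in activated TFH cells alone 0 were higher and 0 lower, and 37 were lower without mice 34 and 36. Leaving out 1 mouse gave 106 to 132 higher and 43 to 72 lower genes, with 43 lower without WT mouse 23, 44 without 564Igi mouse 17 and 45 without 564Igi mouse 34. Leaving out 1 mouse ended the call of Ier2 in 8 of 10 cases and that of Tpi1 in 3, and ended no other call of a named gene.

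With at least 2 Mt1 UMIs, 5 mice remained, all of them 564Igi, so these values do not cover WT. The smallest exact sign-flip p of 5 mice is 0.0625, so no call was possible. The differences were 473 raw UMIs, 121 genes, -0.54 percent mitochondrial UMIs, 0.0633 in heat shock, -0.0103 in S and -0.0318 in G2/M score. The difference in percent of ribosomal protein UMIs was -0.432 (adjusted exact p = 0.0742), -0.862 without weights and -0.85 with UMI quartiles, both past the threshold, and -0.532 to -0.323 without 1 mouse, past it without WT mouse 12 (-0.521) or 14 (-0.532). Weights by UMI quartile ended the calls for heat shock (0.0162) and S score (-0.00446). For clones, a size of at least 5 cells gave 8.33 points more Mt1-detected cells in such clones (adjusted exact p = 0.0293), and no weights gave 4.64 points for mates with Mt1 (adjusted exact p = 0.0195); leaving out 1 mouse gave 2.41 to 3.99, past the threshold without WT mouse 36 (3.76) or 564Igi mouse 24 (3.99). Between conditions, raw UMIs differed by 56.8 in medians and by -232 to 225 without 1 mouse, genes per cell by -81.5 to 37.8, the heat shock score by -0.0277 to 0.0146 and the S score by -0.00394 to 0.00274, none past the threshold.

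No paired analysis was possible because the WT and 564Igi mice share no number.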
